A study of Mus musculus with 8 samples.

Results

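The anaphase-promoting complex, or cyclosome (APC/C), was described here through the transcripts of 10 of its genes in sorted multipotent progenitors (MPPs) from the marrow of mice. These were the subunits Cdc27, Cdc16, Cdc23, Cdc26, Anapc1, Anapc4, Anapc5 and Anapc7 and the activators Cdc20 and Fzr1. They were taken by symbol from a table of 37980 Ensembl gene rows, and all 10 were among the 11451 genes that passed the filter on low values. NA MPPs came from C57BL/6 mice of the genotype NA LSL/+; Vav-Cre, in which the Cre recombinase releases the fusion NUP98-HOXA10hd (NA) at the Rosa26 locus in blood cells, because the Vav promoter drives Cre there. WT MPPs came from age-matched CD45.2 mice, and whether these carried Vav-Cre was not given in the sources used here, nor were the age and the sex of the donors. Both groups were sorted as Lin-CD48-ckit+Sca1+CD135+CD150- cells, with 1000 cells in each of 4 libraries per group, written NA1 to NA4 and WT1 to WT4. The labels do not say that the 4 aliquots of a group came from separate mice, so p-values measure the spread between these libraries, which may be technical.

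The APC/C is a ubiquitin ligase that marks cyclins, securin and other mitotic proteins for destruction by the proteasome, which lets sister chromatids part and lets cells leave mitosis. Its scaffold is an arc of subunits with tetratricopeptide repeats (Cdc27, Cdc16, Cdc23 and Anapc7), which sits on a platform that includes Anapc1, Anapc4 and Anapc5. Cdc20 activates the complex in mitosis, and Fzr1, also named Cdh1, activates it at mitotic exit and in G1, when it keeps mitotic proteins low in resting cells. Most long-lived blood stem cells rest in G0, while MPPs divide more often.

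Promoter sequence is shown for 4 genes because transcripts of the activator and of many substrates rise in G2 and mitosis, whereas those of most core subunits vary less over the cell cycle. The windows run from 250 bases before to 50 bases after the transcription start in RefSeq (GRCm38.p6) and were searched on both strands for TTTGAA, the core of the cell cycle genes homology region (CHR), and for CCAAT, the box bound by NF-Y. Capitals mark the matches. Cdc27 (chr11:104550571-104550870, minus strand) and Cdc16 (chr8:13757406-13757705, plus strand) are scaffold subunits, Cdc20 (chr4:118437294-118437593, minus strand) is the mitotic activator, and Plk1 (chr7:122159185-122159484, plus strand) is a mitotic kinase that the APC/C degrades.
Cdc27: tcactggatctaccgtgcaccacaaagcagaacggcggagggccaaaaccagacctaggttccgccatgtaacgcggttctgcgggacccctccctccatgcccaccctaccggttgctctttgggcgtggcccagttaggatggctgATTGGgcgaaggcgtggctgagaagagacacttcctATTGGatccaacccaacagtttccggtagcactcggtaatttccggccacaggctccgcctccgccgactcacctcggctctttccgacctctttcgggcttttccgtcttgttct
Cdc16: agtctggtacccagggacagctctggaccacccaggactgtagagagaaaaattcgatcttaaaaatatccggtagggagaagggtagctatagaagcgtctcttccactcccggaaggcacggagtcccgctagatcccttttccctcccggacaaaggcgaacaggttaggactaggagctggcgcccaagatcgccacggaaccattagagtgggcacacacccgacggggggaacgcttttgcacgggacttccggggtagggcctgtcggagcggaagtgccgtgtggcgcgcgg
Cdc20: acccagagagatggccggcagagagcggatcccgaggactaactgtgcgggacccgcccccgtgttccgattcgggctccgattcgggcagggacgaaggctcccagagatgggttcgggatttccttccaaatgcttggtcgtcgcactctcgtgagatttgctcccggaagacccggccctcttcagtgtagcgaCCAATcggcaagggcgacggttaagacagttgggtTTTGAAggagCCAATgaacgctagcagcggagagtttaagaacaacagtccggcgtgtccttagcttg
Plk1: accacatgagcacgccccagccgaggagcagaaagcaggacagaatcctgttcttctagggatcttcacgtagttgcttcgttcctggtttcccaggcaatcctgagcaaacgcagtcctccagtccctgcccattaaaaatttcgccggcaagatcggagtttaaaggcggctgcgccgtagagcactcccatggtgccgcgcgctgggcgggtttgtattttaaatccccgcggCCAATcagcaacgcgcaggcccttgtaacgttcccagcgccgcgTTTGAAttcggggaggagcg

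The Cdc27 window held no TTTGAA and had CCAAT on the reverse strand at 102 and 66 bases before the start, read there as ATTGG. The Cdc16 window held neither motif. The Cdc20 window held TTTGAA at 18 bases before the start, between CCAAT at 53 and at 8 bases before it. In Plk1, CCAAT lay 14 bases before and TTTGAA 30 bases after the start. Of the 9 listed APC/C genes with a window in the table, 2 held TTTGAA (Anapc7 and Cdc20) and 4 held CCAAT (Cdc27, Anapc5, Cdc20 and Fzr1). Among all 32851 windows, 17.9% held TTTGAA, 37.4% held CCAAT and 6.95% held both. Cdc20 was the listed gene with both motifs, and such a match is a description of these letters, not evidence of binding.

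Values are RSEM counts that had been divided by 1 size factor per library, called normalised counts here, and the estimated depth was 3887854 to 4916989 reads in NA and 3876907 to 4890088 in WT libraries. Genotype cannot be told apart from donor sex, because Xist ran from 0.94 to 2.80 normalised counts in NA and from 869 to 1285 in WT, while Ddx3y ran from 281 to 668 and from 0 to 0.888. None of the APC/C genes listed is on a sex chromosome. Library 4 of each group lay closer to a weighted sum of the other 3 than these did to theirs, with an excess variance of 0.0135 in NA4 against 0.0211 to 0.0481 and of 0.00283 in WT4 against 0.0126 to 0.0370, over 7244 and 7179 genes with at least 100 estimated reads on average. Whether NA4 and WT4 hold material of the other libraries of their group was not tested, and each SD, interval and p with n = 4 counts them as separate libraries. Calls are therefore also given without both. Kit, Ly6a and Flt3, which are genes of the gate, were present. With Cd34, which was not used in the sort, they summed to 7337 to 7655 in NA and 7486 to 7891 in WT. Cd34 alone had means of 3395 in NA and 3646 in WT. Cd48 and Slamf1, absent from the gate as proteins, summed to 25.9 to 60.2 in NA and 52.4 to 114 in WT. Of these 6 genes limma called 2, both lower in NA and without overlap. Over all genes tested, limma called 17.9% (7.87% as lower), and 22.0% did not overlap (10.5% as lower). Ly6a was at 1221 to 1408 in NA and 1482 to 1614 in WT (limma adjusted p = 0.0257), and Cd48 at 12.2 to 22.4 and 34.2 to 83.8 (limma adjusted p = 0.00711). Without NA4 and WT4 neither was called, at limma adjusted p of 0.164 for Ly6a and 0.0676 for Cd48, beside 4.52% of all genes. With single libraries left out, Ly6a was called in 2 of 8 fits and Cd48 in 8 of 8. Sums of the marker lists did not overlap for erythroid (35.4 to 64.9 in NA, 147 to 296 in WT, 8 genes with 1 at 0 throughout), B cell (233 to 389 and 426 to 694, 8 genes with 2 at 0), granulocyte and monocyte (3120 to 3364 and 3563 to 4563, 10 genes with 2 at 0), megakaryocyte (2768 to 3044 and 2570 to 2717, 6 genes) and stem cell genes (5270 to 6075 and 3492 to 3557, 5 genes). Those of T and NK cells (137 to 161 and 129 to 148, 7 genes with 4 at 0) and of mast cells and basophils (7.39 to 15.9 and 1.14 to 19.5, 4 genes with 2 at 0) overlapped. The part of donor sex and of other cells in the results that follow was not tested.

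Of the 10 genes, 1 passed the threshold between NA and WT MPPs. Cdc27 was 1.52 times higher in NA, while the other 9 differed by log2 fold changes of -0.22 to 0.32 and did not pass. Across all 11451 genes, limma on log2(normalised count + 1) called 17.9% at a Benjamini-Hochberg adjusted p below 0.05, 10.1% as higher and 7.87% as lower in NA, so 1 of 10 is not above the background. The median log2 fold change was 0.02 over the 10 genes and -0.01 over all genes tested, and -0.05 and -0.08 after scaling to equal library totals. In bulk libraries such as these, a change in the share of cells in cycle and a change in transcript per cell cannot be told apart. Without NA4 and WT4, 0 of the 10 were called by limma, beside 4.52% of 11494 genes (3.26% as higher). At an unadjusted p below 0.05, 1 of the 10 passed with all 8 libraries, beside 32.5% of all genes, and 1 passed without NA4 and WT4, beside 19.9%. The 9 genes other than Cdc27 then had log2 fold changes of -0.23 to 0.44, with limma adjusted p of 0.311 to 0.998.

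Cdc27 (ENSMUSG00000020687, chr11:104502745-104550620 in GRCm38, minus strand) encodes a scaffold subunit that binds the tails of the activators. Its normalised counts were 353, 379, 372 and 411 in NA1 to NA4 and 259, 264, 191 and 295 in WT1 to WT4. Every NA library lay above every WT library, as it did for 11.5% of all genes tested, and none of the 10 had every NA library below every WT library, as 10.5% of all genes did. The means were 379 ± 24.2 and 252 ± 43.6 (SD, n = 4 each), and the log2 fold change was 0.60 (SE 0.14, 95% interval 0.31 to 0.89, limma adjusted p = 0.00838). Leaving out each library in turn gave log2 fold changes of 0.47 to 0.68, with limma adjusted p between 0.0107 and 0.0378. Without NA4 and WT4 the log2 fold change was 0.64 and the limma adjusted p 0.0535, just short of the threshold. Its principal transcript had a GC content of 39.9%, the lowest of the 10 genes, and removing each library's trend on GC content left a log2 fold change of 0.42 (adjusted p = 0.0363 by limma). Its direction was known from earlier results of these data and is not independent evidence.

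**Figure D1:**
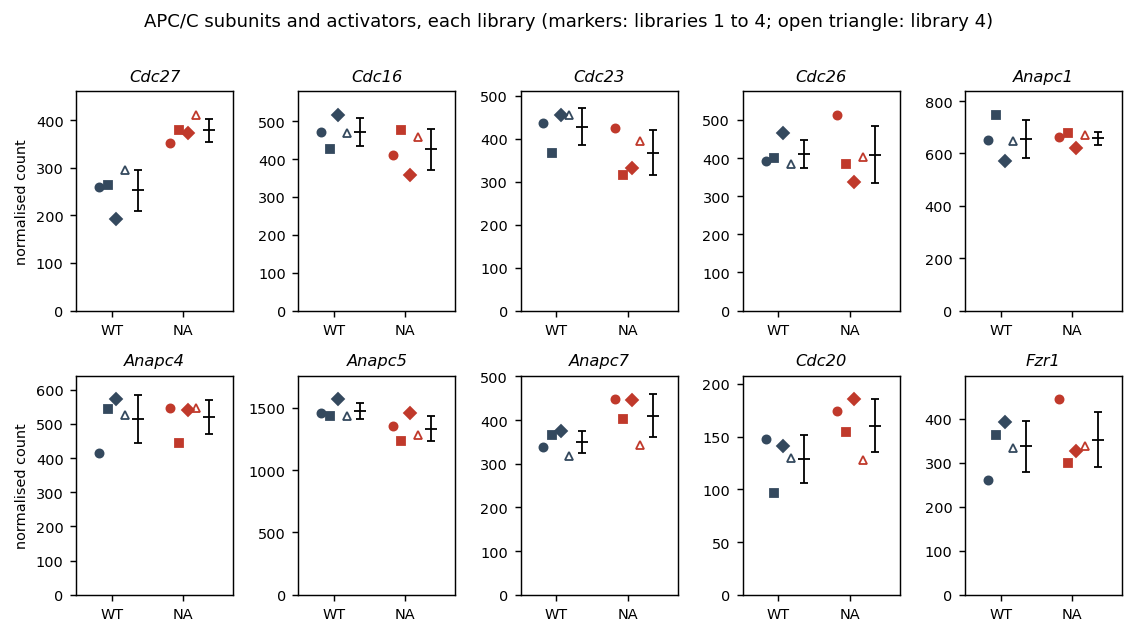
Normalised counts (vertical axes, from 0) of the 10 APC/C genes in the 4 WT (dark) and the 4 NA (red) libraries, 1 panel per gene, with bars for the mean and SD. Open triangles are NA4 and WT4. In Cdc27 the NA libraries, from 353 to 411, all lie above the WT libraries, from 191 to 295, and in the other panels the groups overlap.

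None of the partners of Cdc27 in the scaffold passed the test. Cdc16 (ENSMUSG00000038416, chr8:13757676-13781938), which forms a layer of the arc next to Cdc27, was at 410, 478, 357 and 459 in NA and at 471, 427, 517 and 468 in WT. The groups overlapped, with a log2 fold change of -0.15 (95% interval -0.39 to 0.10, limma adjusted p = 0.392). Cdc23 (ENSMUSG00000024370, chr18:34630951-34651735), at the base of the arc, was at 426, 316, 332 and 396 in NA and at 436, 366, 455 and 455 in WT. The NA values were lower on average but overlapped, at a log2 fold change of -0.22 (-0.49 to 0.04, limma adjusted p = 0.227). Anapc7 (ENSMUSG00000029466, chr5:122421693-122444912), a scaffold subunit found in vertebrates, was at 448, 402, 446 and 343 in NA and at 338, 366, 376 and 319 in WT. Only NA4 lay within the WT range, and the log2 fold change was 0.22 (-0.03 to 0.47, limma adjusted p = 0.202). Once the GC trend was removed, Anapc7 passed at 0.32 (limma adjusted p = 0.0454). Cdc26 (ENSMUSG00000066149, chr4:62383654-62408642), a small protein that stabilises Cdc16, was at 513, 384, 337 and 403 in NA and at 391.5, 400, 467 and 384 in WT. NA1 was its highest and NA3 its lowest library, and the log2 fold change was -0.02 (-0.30 to 0.26, limma adjusted p = 0.941).

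None of the 3 platform subunits passed the test. Anapc1 (ENSMUSG00000014355, chr2:128610104-128687391), the largest subunit, was at 662, 679, 620 and 668 in NA and at 650, 747, 573 and 649 in WT. The NA values lay inside the WT range, with a log2 fold change of 0.01 (95% interval -0.20 to 0.22, limma adjusted p = 0.951). Anapc4 (ENSMUSG00000029176, chr5:52834012-52867797) was at 547, 445, 540 and 547 in NA and at 414, 544, 573 and 526 in WT. NA2 and WT1 were low in it, and the log2 fold change was 0.02 (-0.23 to 0.28, limma adjusted p = 0.923). Anapc5 (ENSMUSG00000029472, chr5:122787459-122821339) was at 1356, 1231, 1460 and 1280 in NA and at 1460, 1433, 1569 and 1433 in WT. Of the NA libraries, 3 lay below every WT library, and the log2 fold change was -0.15 (-0.32 to 0.02, limma adjusted p = 0.221). Scaling to equal library totals turned the estimates of Anapc1 and Anapc4 to -0.06 and -0.05, with neither called.

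The activators, which hold substrates on the complex, did not pass the threshold either. Cdc20 (ENSMUSG00000006398, chr4:118432901-118437352) was at 175, 154, 186 and 128 in NA and at 147, 96.3, 141 and 130 in WT. It was highest in NA3 and lowest in WT2, and NA4 lay within the WT range. On the log2 scale the difference was 0.32 (95% interval -0.06 to 0.71, limma adjusted p = 0.232), an interval that includes the estimate for Cdc27. Fzr1 (ENSMUSG00000020235, chr10:81366222-81378516) was at 445, 301, 328 and 339 in NA and at 260, 364, 394 and 333 in WT. The highest value was in NA1 and the lowest in WT1, and the log2 fold change was 0.07 (-0.26 to 0.39, limma adjusted p = 0.80) and -0.0031 after scaling to equal totals. For 8 of the 9 genes other than Cdc27 the upper bound of the interval lay below the 0.60 of Cdc27, the exception being Cdc20. A limma p that misses the threshold does not show that these transcripts were equal in both groups.

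The spans of some of these genes, introns included, overlap a gene on the opposite strand, and strand use in counting was not given in the sources used here. Cdc23 and Kif20a share 2327 bases, and Kif20a was at 14.1 to 24.3 normalised counts in NA and 1.13 to 21.6 in WT. Cdc26 and Slc31a1 share 8116 bases, though the principal Cdc26 transcript has only 819, and Slc31a1 was at 117 to 124 and 93.2 to 103. Cdc20 and Elovl1 share 53 bases, with Elovl1 at 89.6 to 168 and 154 to 236. Only reads from shared exons would be hard to tell apart without strand, and the overlap of exons was not measured. The span of Cdc27 overlaps no other gene.

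Per kilobase of the principal transcript, the WT levels ran from 534 ± 23.5 normalised counts per kb for Anapc5 and 501 ± 46.4 for Cdc26 down to 46.5 ± 8.04 for Cdc27, the lowest (SD, n = 4). Cdc16 was at 205 ± 16.0, Anapc4 at 133 ± 18.0, Anapc7 at 119 ± 8.81, Fzr1 at 110 ± 18.8 and Cdc23 at 104 ± 10.3 normalised counts per kb in WT. Of these, Anapc4, Anapc7, Fzr1 and Cdc23 follow each other within their SDs, as do Anapc5 and Cdc26. Anapc1 was at 73.2 ± 8.01 and Cdc20 at 71.7 ± 12.7 normalised counts per kb, which overlap. In NA, Cdc27 was at 69.8 ± 4.46 normalised counts per kb, close to Anapc1 at 73.5 ± 2.86, while Cdc20 was at 89.5 ± 14.2 and Cdc23 at 88.9 ± 12.6.

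**Figure D2:**
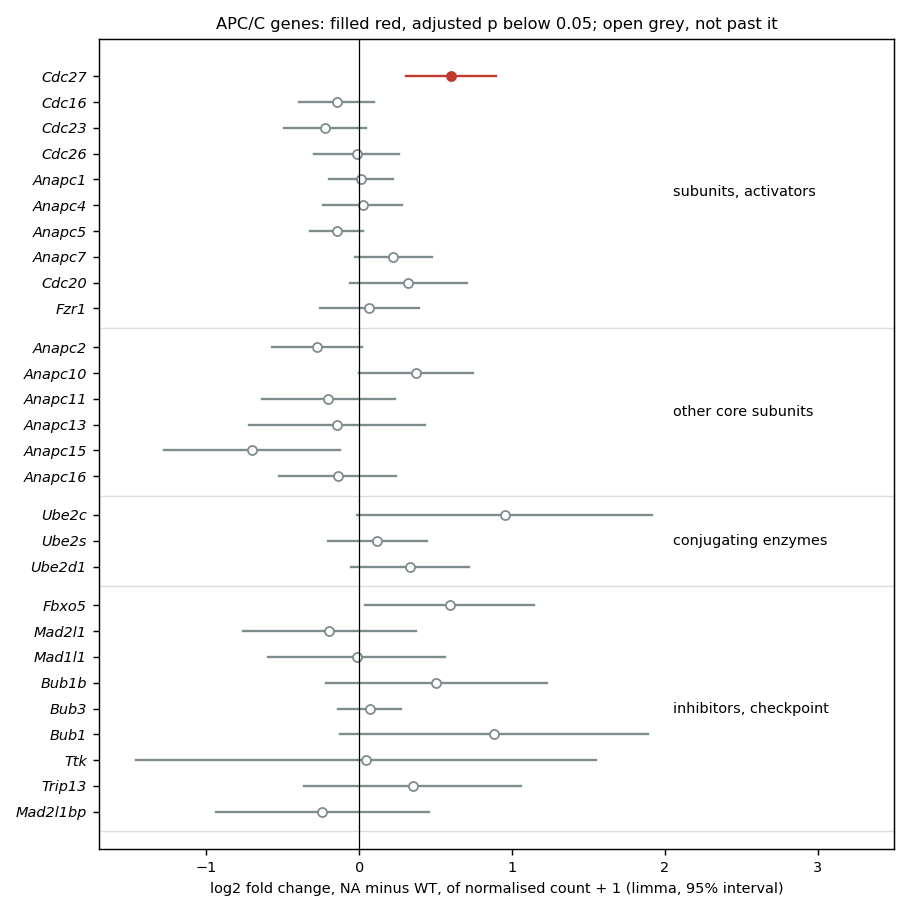
Log2 fold change, NA minus WT, of normalised count + 1 (horizontal axis) with its 95% limma interval for the 10 subunits and activators, 6 other core subunits, 3 conjugating enzymes and 9 inhibitor and checkpoint genes. Cdc27, at 0.60, is the filled point with an adjusted p below 0.05, and the other 27 points are open.

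The ratio of Cdc27 to another gene within 1 library does not depend on the scaling between libraries. Its ratio to Cdc16 was 0.861, 0.793, 1.04 and 0.895 in NA1 to NA4 and 0.551, 0.618, 0.370 and 0.630 in WT1 to WT4. These groups did not overlap, at a log2 difference of 0.75 (exact permutation p = 0.0286, two-sided, 4 against 4). The ratio to Cdc23 was 0.8289 to 1.20 in NA and 0.420 to 0.721 in WT, a log2 difference of 0.82. Neither did the groups overlap for Anapc1 (0.59), Anapc4 (0.58) and Anapc5 (0.75), each with the same exact permutation p, which is the smallest that 70 assignments can give. For Cdc26 (0.62), Fzr1 (0.53), Anapc7 (0.38) and Cdc20 (0.28) they overlapped, with exact permutation p of 0.0571, 0.0857, 0.143 and 0.314. Over these 9 ratios the smallest Benjamini-Hochberg adjusted exact permutation p was 0.0514, so no ratio passed. The ratios share Cdc27 and were chosen after its values were seen, and without NA4 and WT4 no exact permutation p can go below 0.1.

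**Figure D3:**
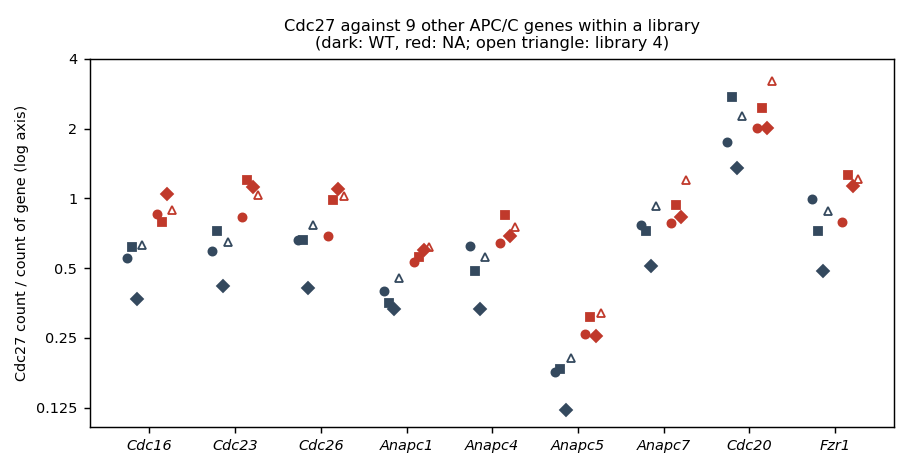
Normalised count of Cdc27 divided by that of each of 9 other APC/C genes within a library (vertical log axis) in WT (dark) and NA (red) libraries, with open triangles for NA4 and WT4. For Cdc16 the NA libraries lie between 0.793 and 1.04 and the WT libraries between 0.370 and 0.630, and for Cdc20 the groups overlap.

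The other 6 core subunits had 0 calls in either direction by limma, beside 17.9% of all genes, and a median log2 fold change of -0.17. At an unadjusted p below 0.05 there were 2 (Anapc10 and Anapc15), beside 32.5% of all genes. Without NA4 and WT4, limma called 0 of the 6, with 0 at an unadjusted p below 0.05 and adjusted p of 0.298 to 0.993. Anapc2, the cullin of the catalytic module, was at 366, 384, 290 and 359 in NA and at 472, 328, 475 and 427 in WT. WT2 lay inside the NA range and the 3 other WT libraries lay above it, for a log2 fold change of -0.28 (adjusted p = 0.179 by limma). Without WT2 it was -0.40 and passed (limma adjusted p = 0.0465). Anapc11, the RING subunit that pairs with Anapc2, had a log2 fold change of -0.20 (adjusted p = 0.525 by limma). Anapc10, which helps the activators to hold substrates, had 157 ± 17.9 normalised counts in NA and 122 ± 24.9 in WT, at 0.37 on the log2 scale (limma adjusted p = 0.153). Anapc15, needed for the turnover of checkpoint complexes on the APC/C, had the lowest estimate, with 44.8 ± 11.4 against 73.8 ± 20.9 normalised counts. Its log2 fold change was -0.70 (95% interval -1.28 to -0.13, limma adjusted p = 0.0844), and NA2, at 58.3, lay above WT1, at 53.3. The small subunits Anapc13 and Anapc16 had log2 fold changes of -0.15 and -0.14 (limma adjusted p of 0.741 and 0.615).

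None of the 3 ubiquitin-conjugating enzymes of the APC/C was called by limma, and 0 had an unadjusted p below 0.05, both also without NA4 and WT4 (adjusted p of 0.285 to 0.721). Ube2c, which places the first ubiquitins and is itself an APC/C substrate, was at 80.3, 118, 38.8 and 82.7 in NA and at 59.5, 12.5, 46.7 and 58.6 in WT. NA3 lay inside the WT range and WT2 was far below the rest, so the log2 fold change of 0.95 had a wide interval (-0.01 to 1.91, limma adjusted p = 0.160). Ube2s, which extends the chains, had 368 ± 74.3 and 338 ± 58.9 normalised counts (0.12, limma adjusted p = 0.628). Ube2d1, which can also place the first ubiquitins, had 148 ± 27.1 and 117 ± 18.6 (0.33, limma adjusted p = 0.217).

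Among 9 inhibitors and checkpoint genes, limma called 0, beside 17.9% of all genes, and 1 (Fbxo5) had an unadjusted p below 0.05, beside 32.5%. Without NA4 and WT4 it called 0, with 0 at an unadjusted p below 0.05 and adjusted p of 0.349 to 0.992. Fbxo5, or Emi1, which blocks the APC/C in S and G2 phase, was at 72.8, 69.6, 64.6 and 78.0 in NA and at 61.3, 28.3, 50.1 and 55.0 in WT. The groups did not overlap, which held for 22.0% of all genes tested in either direction. The log2 fold change was 0.59 (95% interval 0.04 to 1.15, limma adjusted p = 0.128). Members of the mitotic checkpoint complex, which holds back Cdc20, had log2 fold changes of -0.20 (Mad2l1), 0.50 (Bub1b) and 0.07 (Bub3), with limma adjusted p of 0.642, 0.323 and 0.664. Bub1, a checkpoint kinase at kinetochores, was at 51.3, 15.0, 21.2 and 18.9 in NA and at 9.77, 23.8, 7.97 and 12.4 in WT. Its log2 fold change of 0.88 (limma adjusted p = 0.210) had an interval from -0.12 to 1.89, with NA1 far above the other NA libraries. The checkpoint kinase Ttk ranged from 4.67 to 52.6 within NA and from 4.53 to 23.1 within WT, so its estimate of 0.04 had an interval from -1.46 to 1.55 (limma adjusted p = 0.974). Mad1l1, which recruits Mad2l1, and Trip13 and Mad2l1bp, which take checkpoint complexes apart, had log2 fold changes of -0.02, 0.35 and -0.24 (limma adjusted p of 0.972, 0.497 and 0.642).

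Of the APC/C gene lists described here, the substrates had the most calls and were also the longest list. Among 27 substrate genes, limma called 6 as higher in NA and 0 as lower. Of all genes, 10.1% were called as higher, 7.87% as lower and 17.9% in either direction. A log2 fold change above 0 was found for 20 of the 27. The median was 0.39, against -0.01 over all genes. Without NA4 and WT4, 0 of the 27 were called, at a median of 0.32. An unadjusted p below 0.05 was reached by 10 of the 27 with all 8 libraries, beside 32.5% of all genes, and by 6 without NA4 and WT4, beside 19.9%. With a term for the depth class of each library, 3 were called, beside 14.3% of all genes. Transcript levels say nothing of the protein that the APC/C destroys.

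Aurkb, the kinase of the chromosomal passenger complex, was at 124, 74.3, 79.4 and 94.5 in NA and at 41.7, 12.5, 42.1 and 23.1 in WT. The lowest NA library was well above the highest WT library, at a log2 fold change of 1.73 (95% interval 0.97 to 2.49, limma adjusted p = 0.00451). Rrm2, the small subunit of ribonucleotide reductase, was at 29.9, 31.0, 42.5 and 30.7 in NA and at 10.7, 7.93, 11.4 and 9.77 in WT. It did not overlap either, at 1.65 (0.90 to 2.41, limma adjusted p = 0.00566). Ccna2, cyclin A2 of S and G2 phase, was at 286, 224, 167 and 237 in NA and at 131, 117, 163 and 122 in WT. NA3 and WT3 nearly met, at a log2 fold change of 0.76 (0.38 to 1.14, limma adjusted p = 0.00946). The direction of Ccna2, like that of Cdc27, was known from earlier results of these data. These 3 were called whichever single library was left out, but without NA4 and WT4 their limma adjusted p was 0.0587 (Aurkb), 0.0778 (Rrm2) and 0.110 (Ccna2), with log2 fold changes of 1.64, 1.69 and 0.70.

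Calls of the other 3 substrates were less stable. Nusap1, which bundles spindle microtubules, was at 74.7, 96.8, 42.5 and 90.9 in NA and at 16.9, 3.40, 52.4 and 27.5 in WT. NA3 lay below WT3, and the log2 fold change was 1.99 (95% interval 0.74 to 3.23, limma adjusted p = 0.0298), called in 4 of 8 fits that leave out 1 library. Plk1, whose promoter is printed above, was at 38.3, 47.9, 25.9 and 36.6 in NA and at 21.3, 10.2, 18.2 and 17.8 in WT. Its groups did not overlap, at 1.11 (0.36 to 1.85, limma adjusted p = 0.0406), called in 2 of 8 such fits. Cks1b, a cofactor of cyclin-dependent kinases, was at 218, 230, 281 and 218 in NA and at 169, 173, 149 and 190 in WT. It did not overlap, at 0.47 (0.17 to 0.77, limma adjusted p = 0.0314), also called in 2 of 8 such fits. Without NA4 and WT4 the limma adjusted p of Nusap1, Plk1 and Cks1b was 0.116, 0.211 and 0.110.

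**Figure D4:**
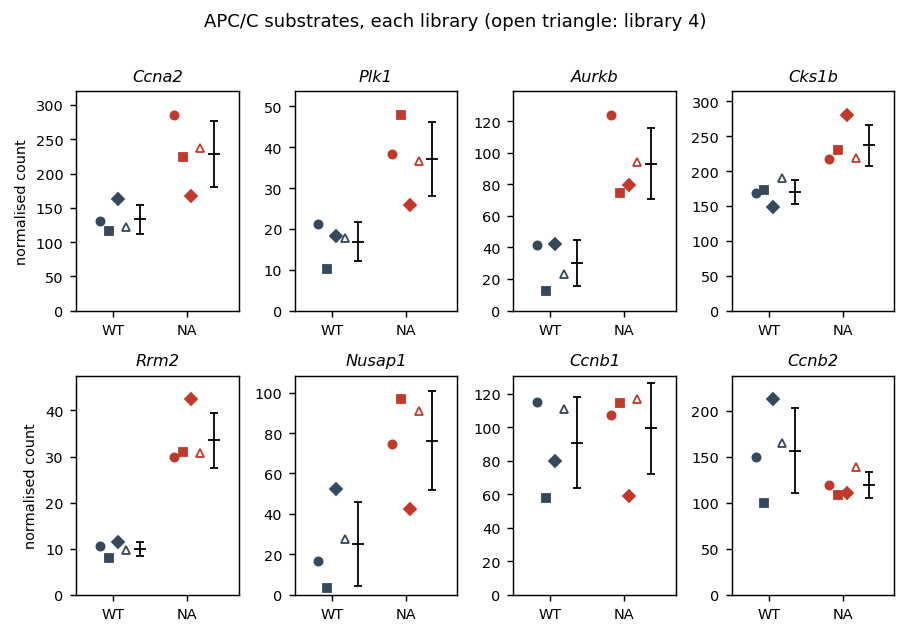
Normalised counts (vertical axes, from 0) of the 6 called APC/C substrates and of the B-type cyclins Ccnb1 and Ccnb2 in WT (dark) and NA (red) libraries, with bars for the mean and SD and open triangles for NA4 and WT4. Rrm2 lies between 29.9 and 42.5 in NA and between 7.93 and 11.4 in WT, while the groups overlap for Nusap1, Ccnb1 and Ccnb2.

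B-type cyclins, the best known APC/C substrates, did not pass. Ccnb2 had the lowest estimate of the list, with 119, 108, 111 and 139 in NA and 150, 99.7, 213 and 165 in WT, a log2 fold change of -0.35 (95% interval -0.80 to 0.10, limma adjusted p = 0.268). Ccnb1, named after its values were seen because it is the main mitotic cyclin, had 99.5 ± 27.3 and 91.0 ± 27.3 normalised counts (0.13, limma adjusted p = 0.772). WT2 was the lowest library for Ccnb1, Ccnb2 and every called substrate except Cks1b, which was lowest in WT3. It was also lowest for Cdc20, Fbxo5, Ube2c, Bub1b, Bub3, Ttk and Anapc10, but was the highest WT library for Ube2s and Bub1. NA3 was the lowest NA library for Ube2c, Bub1b, Fbxo5, Plk1, Nusap1, Ccna2 and Ccnb1. For Cdc20, Rrm2, Cks1b and Ube2s, however, NA3 was the highest NA library. Of 22 substrate genes with a promoter window, 12 held TTTGAA, 14 held CCAAT and 9 held both.

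For comparison, 10 genes of the SCF ligase, the other large ubiquitin ligase of the cell cycle, had 2 calls as higher and 0 as lower by limma, beside 10.1% and 7.87% of all genes, at a median log2 fold change of 0.11. Skp1, its adaptor (Skp1a in the annotation), was at 481, 467, 623 and 550 in NA and at 275, 231, 156 and 232 in WT. Its log2 fold change was 1.26 (95% interval 0.92 to 1.61, limma adjusted p = 0.000148), and it was still called without NA4 and WT4 (1.27, limma adjusted p = 0.00378). Fbxw7, the F-box protein that recruits cyclin E and MYC, was at 235, 195, 202 and 222 in NA and at 169, 143, 116 and 162 in WT (0.54, limma adjusted p = 0.0252). It did not overlap between groups but was called in 5 of 8 fits that leave out 1 library, and without NA4 and WT4 its limma adjusted p was 0.140. Btrc, another F-box protein, had the lowest estimate at -0.40 (limma adjusted p = 0.122).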

How the data were processed

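RNA of sorted MPPs was measured in 8 libraries of amplified cDNA, tagmented and sequenced on a NextSeq 500. Per the labels, the authors used bcl2fastq, RSEM and DESeq2 with mm10, and versions and strand use were not given in the sources used here. The deposited values are a normalised signal: in each library 98.3% to 98.8% of values above 0.5 were whole multiples, within 0.02 reads, of a step of 0.888 to 1.18, so RSEM counts had been divided by 1 size factor. Depth was estimated by dividing by the step. This departs from the name of the table, which calls its values raw counts, and no count model was run.

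A minimum of 10 normalised counts in 4 or more libraries was required, and genes that met it were tested with limma 3.58.1 (R 4.3.3) on log2(normalised count + 1), with a mean-variance trend, no covariate and Benjamini-Hochberg adjustment over all genes tested (threshold 0.05). Fold changes are on that scale, which understates changes of low genes. For ratios an exact permutation test, two-sided, was used (scipy 1.17.1). Symbols, coordinates and transcripts came from GENCODE M21 (GRCm38), which named 32916 of 37980 rows. All listed subunits, conjugating enzymes and inhibitors are named, and of substrates and SCF genes those called and the largest change in a direction with no call. Members and lists were chosen with earlier results of these data known. Alternatives were other pseudocounts, filters, scalings and variance models, each library left out, NA4 and WT4 left out together, a replicate block, a depth class term, and removal of a GC trend (added after seeing the data). Intervals cover only the spread between libraries.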

Additional observations from a re-analysis of the deposited data

Results flagged for a closer look

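Of 76 groups of 4 libraries tested, 5 had a library whose gap to its neighbour exceeded Dixon's critical share of the range. Chance flags about 1 in 20. The check covered 38 named genes in each genotype. Of the substrates and SCF genes, these held only those called and the largest change in a direction with no call. Anapc4 was low in NA2, at 444.6 normalised counts against 540.1 to 547 in the other NA libraries. Ube2s was high in NA3, at 478.3 against 316.5 to 340.3. Bub1b was low in WT2, at 24.91 against 58.6 to 60.37, and WT2 was also lowest for other genes, among them Ube2c, Plk1, Aurkb and Nusap1. Bub1 was high in NA1, at 51.34 against 15.04 to 21.24. Rrm2 was high in NA3, at 42.47 against 29.87 to 31.02, and its other NA libraries also lay above every WT library. No cause of these values was tested.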

How the results depend on the processing

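Leaving out each library in turn gave 1106 to 2141 genes called, with 1106 without NA4 and 1294 without WT4, and leaving out both NA4 and WT4 gave 519. Calls in that smallest set were 0 of the 10 APC/C genes, 0 substrates and 1 SCF gene (Skp1), from 6 libraries. With single libraries left out, 1 of the 10 genes was called each time, 3 to 6 substrates (3 without NA2 and 3 without NA4), 1 to 2 SCF genes and 0 to 1 other core subunits. A depth class term left 3 substrates and 1 SCF gene, and removing the GC trend gave 2 of the 10 genes. Scaling to equal totals called 925 genes as higher and 1314 as lower in NA, against 1152 and 901. Of 678 values recomputed for 38 named genes, 604 kept their direction and side of the threshold and 34 changed sign, with 0 of those called. Signs changed under total scaling for Anapc1 (-0.0574), Anapc4 (-0.0473), Fzr1 (-0.00312), Bub3 (-0.0012) and Ttk (-0.0212), and without NA4 and WT4 for Ttk (-0.0273). With the depth class term they changed for Cdc26 (0.00347), Mad1l1 (0.0215) and Ttk (-0.0345), and with the GC trend removed for Anapc1 (-0.0636), Anapc4 (-0.0989), Mad1l1 (0.127) and Ttk (-0.102). Over single libraries left out, log2 fold changes ran from -0.0791 to 0.0944 for Anapc4, -0.0539 to 0.145 for Fzr1, -0.132 to 0.0695 for Cdc26, -0.0508 to 0.0771 for Anapc1, -0.347 to 0.0848 for Mad2l1, -0.172 to 0.0972 for Mad1l1, -0.579 to 0.501 for Ttk, -0.0145 to 0.228 for Ube2s, -0.44 to 0.197 for Mad2l1bp and -0.35 to 0.0346 for Anapc13. The cause of these changes was not tested.

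Whether libraries with the same number in both groups were paired was not given and was not tested. Correlations of their deviations from the group means were 0.0874, 0.0271, 0.0131 and 0.158. NA1 and NA4 correlated best with the WT library of the same number, but NA2 did so with WT4 (0.0531) and NA3 with WT2 (0.101). With the replicate number as a block, 2004 genes, 1 of the 10 APC/C genes (Cdc27) and 4 substrates were called. The 2 planned count models on recovered reads were not run, because fractional assignments below 1 read remained. Low genes had wide intervals, such as Ttk and Bub1 with group means of 13.5 to 26.6 normalised counts. NA1 and NA2 had nearly equal estimated depth (4916989 and 4916096 reads), yet Ttk was at 4.67 and 52.6 and Bub1 at 51.3 and 15.0, and the cause of that spread was not tested.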
